A study of Mus musculus with 12 samples.

Results

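Expression of 10 antiviral genes of the type I interferon response was examined in splenic CD4+ T cells of Tg4 *Nr4a3*-Tocky *Il10*-GFP mice after blockade of Lag3, PD-L1 or both. The 10 genes, of 56691 mouse genes in the count table, are *Isg15*, *Bst2*, *Ifit1*, *Ifit3*, *Oasl2*, *Rtp4*, *Usp18*, *Ifitm3*, *Ifi27l2a* and *Isg20*. They were chosen from a list of known antiviral interferon-stimulated genes with earlier results of these same samples in view, the differences between CB and isotype included. Their levels and fold changes are therefore descriptions, and the adjusted p-values given for them are those of a fit to all genes, not independent evidence.

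Type I interferons bind a receptor made of Ifnar1 and Ifnar2, whose kinases Jak1 and Tyk2 pass the signal on by phosphorylation. A transcription factor complex that holds Stat2 and Irf9 then binds the interferon-stimulated response element (ISRE) in front of many antiviral genes. T cells respond to interferon in this way, and the same genes are commonly used to read out interferon exposure in lymphoid tissue.

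All mice carried the Tg4 transgenic T cell receptor, specific for a myelin basic protein (MBP) peptide, the *Nr4a3*-Tocky reporter, in which a Timer protein that matures from blue to red reports *Nr4a3* transcription, and an *Il10*-GFP reporter. According to the methods, both sexes were used, typically at 6 to 8 weeks of age. Every mouse was given [4Y]-MBP peptide subcutaneously at 4 mg/kg, antibody intraperitoneally 24 h later, and peptide again at 0.4 mg/kg a further 30 min later, and spleens were taken after another 12 h. The 4 groups of 3 mice were given different antibodies, namely a rat IgG1 and IgG2a pool (isotype), anti-Lag3 (clone C9B7W), anti-PD-L1 (clone MIH5) or both antibodies combined (CB, co-blockade). Live CD4+ cells positive for Timer Blue and Timer Red (responder cells) were sorted, so cells that did not respond were not measured, and 3′ tag libraries were sequenced. According to the methods, mice were sorted in batches with 1 of each group, and the CD4 antibody used for the sort carried a different fluorochrome in each group, so that the stain and the treatment cannot be told apart.

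Between 16449370 and 22151025 reads per mouse fell on genes. T cell markers were high in every library (10 genes, summed level 4179 to 4835 CPM, counts per 1000000 reads of the TMM-adjusted library total), with *Cd4* at 202 to 318 CPM. Of the 15 myeloid and conventional dendritic cell markers, *Xcr1* and *Cd14* had no read in any library, and the summed level was 9.80 to 36.3 CPM. The 10 B cell markers summed to 348 to 481 CPM and the 8 plasmacytoid dendritic cell markers to 14.5 to 38.4 CPM, although the sort gate left these cells out. These libraries come from bulk cells, in which fewer cells expressing a gene and less RNA per cell cannot be told apart.

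The DNA in front of the genes was examined first, because the ISRE is the element through which the pathway is known to act. RefSeq (GRCm38.p6) gave promoter windows for 7 of the 10 genes, and the 250 bases before each transcript start were searched on both strands for an ISRE core, written GAAANNGAAA, and for the gamma-activated site (GAS), an element of the interferon gamma response, written TTCNNNGAA. The ISRE core was found in *Isg15*, *Bst2*, *Ifit1* and *Ifit3*, which is 4 of 7 genes, compared with 3.46% of 27025 genes and with 15 of 45 other interferon-stimulated genes that had a window. These stretches are shown 5′ to 3′ in the direction of transcription, from 20 bases before the first match to 20 bases after the last, with the matches in capitals. They come from chr4:156200855-156200916 (minus strand), chr8:71537567-71537622 (minus strand), chr19:34640765-34640833 (plus strand) and chr19:34583353-34583436 (plus strand), all upstream of the start and outside the transcript.
Isg15: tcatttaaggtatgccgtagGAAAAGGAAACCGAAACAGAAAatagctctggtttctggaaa
Bst2: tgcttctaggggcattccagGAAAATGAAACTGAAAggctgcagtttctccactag
Ifit1: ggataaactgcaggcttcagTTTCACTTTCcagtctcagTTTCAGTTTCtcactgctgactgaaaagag
Ifit3: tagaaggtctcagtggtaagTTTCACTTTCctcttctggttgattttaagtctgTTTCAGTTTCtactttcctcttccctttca
The *Isg15* stretch held 3 overlapping cores that ended 56 bases before the start, and the *Bst2* stretch held 2 overlapping cores that ended 114 bases before it. In *Ifit1* and *Ifit3* the 2 cores lay apart and on the opposite strand, so that they read as runs of T in the direction of transcription. *Oasl2*, *Ifitm3* and *Isg20* held no ISRE core in this window, and *Rtp4*, *Usp18* and *Ifi27l2a* had no window.

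A GAS match was present in 2 of the 7 genes, *Bst2* and *Isg20*, against 8.13% of 27025 genes and 4 of 45 other interferon-stimulated genes. It is shown for both because *Isg20* held no other match, at chr8:71537580-71537628 (minus strand) and chr7:78913331-78913379 (plus strand).
Bst2: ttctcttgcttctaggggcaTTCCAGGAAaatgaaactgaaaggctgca
Isg20: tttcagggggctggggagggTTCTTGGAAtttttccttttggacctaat
The *Bst2* GAS match overlapped the first of its ISRE cores. A letter match is a description of these windows and does not show binding.

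**Figure D1:**
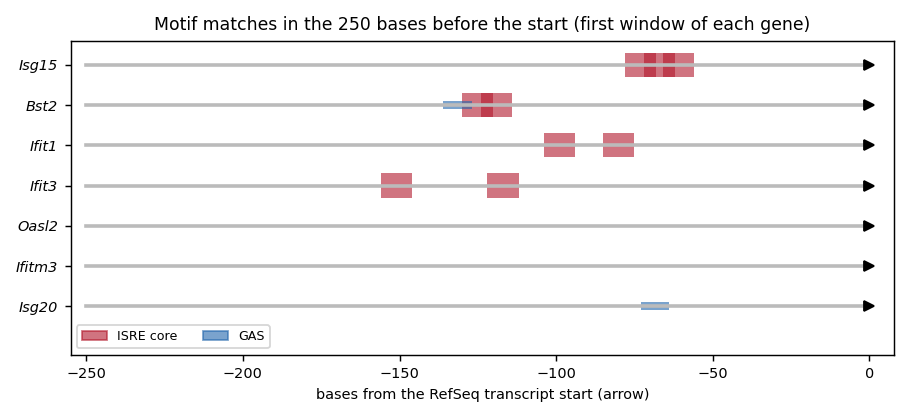
Positions of the motif matches, as bases before the RefSeq transcript start, in the 7 genes with a promoter window. Tall red blocks are ISRE cores and short blue blocks GAS matches. The ISRE cores of *Isg15*, *Bst2*, *Ifit1* and *Ifit3* ended 56 to 114 bases before the start at their nearest point, and *Oasl2* and *Ifitm3* held neither motif.

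In CB against isotype, 3 of the 10 genes were called higher and none lower (edgeR's quasi-likelihood test, adjusted p under 0.05 over 15138 genes tested, all 10 among them). Of all genes tested, 4.29% were called in this comparison and 2.33% were called higher. The 3 were *Isg15*, *Bst2* and *Ifitm3*, and they were still called in all 12 fits with 1 mouse omitted. The median log2 fold change over the 10 genes was 0.74, against 0.00 over all genes tested. The groups did not overlap in 4 genes, the same 3 and *Usp18*, with every CB mouse above every isotype mouse, which 10.4% of all genes also showed.

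*Isg15* encodes a ubiquitin-like protein that interferon-treated cells secrete or attach to other proteins (chr4:156199424-156200818, minus strand). It was at 72.2, 78.2 and 91.0 CPM in the 3 isotype mice, 110, 141 and 170 with anti-Lag3, 84.1, 137 and 158 with anti-PD-L1, and 176, 150 and 270 in CB. Every CB mouse lay above every isotype mouse, and each single antibody group lay between them on average while overlapping CB. The means were 80.4 ± 9.59 CPM (SD, n = 3) in isotype and 199 ± 62.9 in CB. This was a log2 fold change of 1.30 (SE 0.20, 95% interval 0.89 to 1.72, adjusted p = 1.94e-04). Against isotype alone, anti-Lag3 gave 0.80 (SE 0.20, adjusted p = 0.554) and anti-PD-L1 0.65 (SE 0.20, adjusted p = 0.344), neither of which passed the test. Both were called when the filter on low counts was dropped, and also when the mouse number was taken as a replicate block. The log2 difference between the combined effect and the sum of the single effects (the interaction) was -0.15, with an interval of -0.72 to 0.43.

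*Bst2* encodes tetherin, which holds budding virus particles on the cell surface (chr8:71534255-71537456, minus strand). Its level was 22.0, 34.8 and 37.8 CPM in isotype, 37.7, 46.2 and 54.6 with anti-Lag3, 47.7, 47.6 and 41.6 with anti-PD-L1, and 67.5, 52.8 and 86.0 in CB. The order of groups was that of *Isg15*, and the CB mice lay above both isotype and anti-PD-L1 without overlap. The mean rose from 31.5 ± 8.39 to 68.8 ± 16.6 CPM between isotype and CB, a log2 fold change of 1.13 (SE 0.21, adjusted p = 0.00163). The single antibodies gave 0.55 (anti-Lag3) and 0.53 (anti-PD-L1) over isotype, both with an SE of 0.21 and neither past the test. The interaction was 0.04, with an interval of -0.56 to 0.65.

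*Ifitm3* encodes a membrane protein of endosomes that blocks virus entry (chr7:141009586-141010770, minus strand). It was at 3.07, 10.5 and 16.8 CPM in isotype, 11.0, 17.7 and 12.3 with anti-Lag3, 6.85, 25.7 and 22.4 with anti-PD-L1, and 28.9, 48.8 and 52.7 in CB. All 3 CB mice were above the other 9 mice, whose groups overlapped each other. The change from 10.1 ± 6.89 to 43.5 ± 12.8 CPM was the widest of the 10 genes, at a log2 fold change of 2.10 (SE 0.44, adjusted p = 0.00448). The difference of CB from anti-Lag3 was 1.67 (SE 0.44, adjusted p = 0.0752) and from anti-PD-L1 1.24 (SE 0.43, adjusted p = 0.307). Neither passed the test in this fit. Both were called without the filter on low counts, and with the mouse number taken as a replicate block. The isotype values spread widely, and the fold change between CB and isotype ranged from 1.67 without isotype mouse 1 to 2.68 without isotype mouse 3. Of the 50-base windows in the last 500 bases of its transcript, 14% also occur in other genes, *Ifitm1* and *Ifitm2* among them, and reads from such windows are not unique.

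*Usp18*, the protease that removes Isg15 from proteins and also restrains Ifnar2 signalling (chr6:121245906-121270917, plus strand), did not pass the test. It was at 18.4, 15.3 and 17.5 CPM in isotype, 13.2, 25.5 and 20.2 with anti-Lag3, 16.1, 23.1 and 41.6 with anti-PD-L1, and 24.0, 26.4 and 33.2 in CB. The CB and isotype mice did not overlap, while the anti-PD-L1 group held both a low and the highest value. The log2 fold change of CB over isotype was 0.71 (SE 0.30, 95% interval 0.09 to 1.33, adjusted p = 0.242). The antisense gene *Gm44148* overlaps an exon of *Usp18* and had 102 reads in all, against 5429 for *Usp18*.

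**Figure D2:**
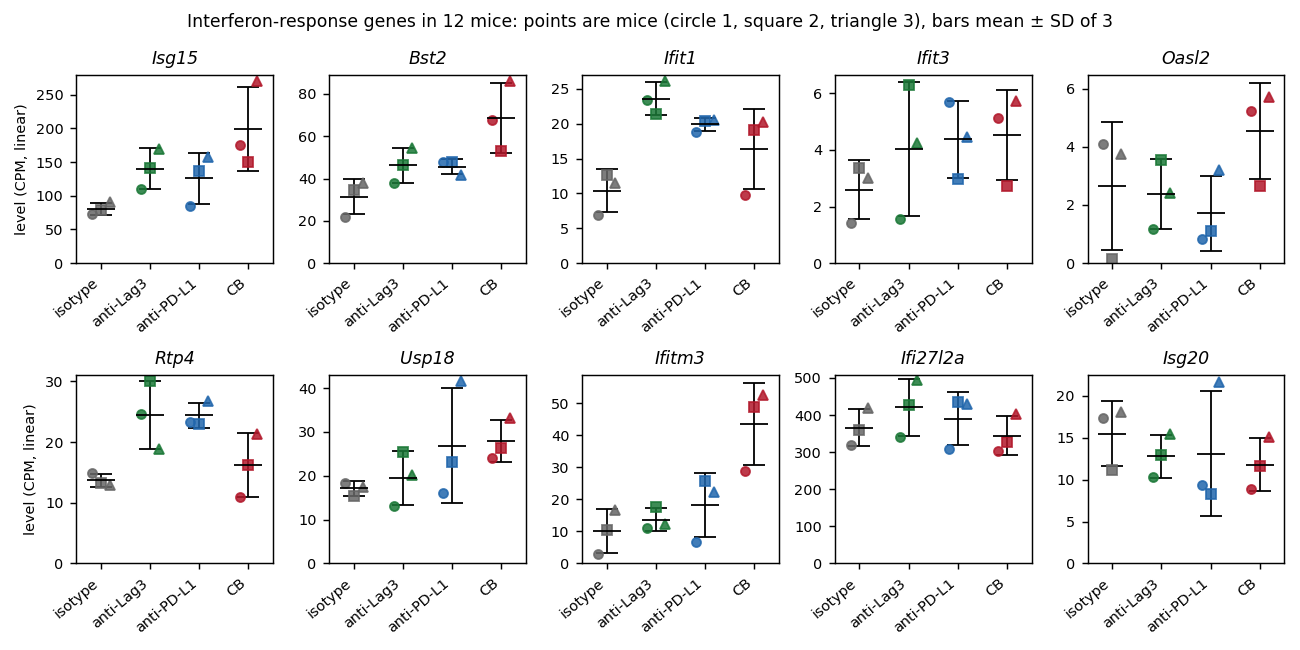
Level in CPM (linear axis from 0) of each of the 10 genes in the 12 mice, with 1 panel per gene and 1 column per group. Circle, square and triangle mark mice 1, 2 and 3 of a group, and bars give the mean ± SD of 3. *Isg15*, *Bst2* and *Ifitm3* were highest in CB, at means of 199, 68.8 and 43.5 CPM, whereas *Ifit1* and *Rtp4* were highest with anti-Lag3 or anti-PD-L1 alone.

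*Ifit1* and *Rtp4* had another order of groups, with both single antibodies above CB. *Ifit1*, whose product binds viral RNA and blocks its translation (chr19:34640871-34650009, plus strand), was at 6.94, 12.7 and 11.5 CPM in isotype, 23.4, 21.4 and 26.1 with anti-Lag3, 18.8, 20.4 and 20.5 with anti-PD-L1, and 9.80, 19.1 and 20.3 in CB. Both single antibody groups lay above isotype without overlap, and CB mouse 1 was as low as the isotype mice. The log2 fold changes over isotype were 1.19 with anti-Lag3 (SE 0.31, adjusted p = 0.674), 0.94 with anti-PD-L1 (SE 0.31, adjusted p = 0.402) and 0.66 in CB (SE 0.31, adjusted p = 0.299). None passed the test over all genes.

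*Rtp4*, an interferon-induced transporter protein (chr16:23520291-23614222, plus strand), was at 14.9, 13.2 and 13.0 CPM in isotype, 24.6, 30.0 and 18.8 with anti-Lag3, 23.3, 23.0 and 26.8 with anti-PD-L1, and 10.9, 16.2 and 21.4 in CB. Here too each single antibody group was above isotype without overlap, and every CB mouse was below every anti-PD-L1 mouse. The log2 fold changes over isotype were 0.84 with anti-Lag3 (SE 0.28, adjusted p = 0.805), 0.83 with anti-PD-L1 (SE 0.28, adjusted p = 0.446) and 0.24 in CB (SE 0.28, adjusted p = 0.793). The interaction was -1.42 for *Rtp4* (SE 0.39, unadjusted p = 0.00124, adjusted p = 0.752) and -1.46 for *Ifit1* (SE 0.43, unadjusted p = 0.00216, adjusted p = 0.804). No gene of the 15138 was called in the interaction (0%), and 898 had an unadjusted p under 0.05.

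*Ifit3*, a partner of *Ifit1* in RNA binding (chr19:34583531-34588731, plus strand), was low and variable. It was at 1.41, 3.36 and 3.02 CPM in isotype, 1.57, 6.29 and 4.25 with anti-Lag3, 5.69, 2.97 and 4.46 with anti-PD-L1, and 5.13, 2.74 and 5.72 in CB, from 28 to 127 reads per library. All groups overlapped. The log2 fold change of CB over isotype was 0.80 (SE 0.73, 95% interval -0.70 to 2.31, adjusted p = 0.686), and 14.9% of the 50-base windows near its 3′ end also occur in *Ifit3b*.

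*Oasl2*, an oligoadenylate synthetase-like protein (chr5:114896936-114912234, plus strand), was the lowest of the 10 in reads. Its values were 4.08, 0.127 and 3.76 CPM in isotype, 1.16, 3.56 and 2.42 with anti-Lag3, 0.813, 1.12 and 3.19 with anti-PD-L1, and 5.24, 2.64 and 5.72 in CB. Isotype mouse 2 had 2 reads and isotype mouse 1 had 81, so that the range within isotype was wider than any difference between group means. The log2 fold change of CB over isotype was 0.77 (SE 0.97, adjusted p = 0.821), and between 0.21 and 1.22 with 1 mouse left out.

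*Ifi27l2a*, a small hydrophobic interferon-induced protein (chr12:103442167-103443680, minus strand), had the most reads of the 10 and the narrowest interval. It was at 319, 360 and 419 CPM in isotype, 341, 428 and 494 with anti-Lag3, 309, 434 and 429 with anti-PD-L1, and 303, 327 and 404 in CB. The groups overlapped throughout. The log2 fold change of CB over isotype was -0.09 (SE 0.14, 95% interval -0.37 to 0.19, adjusted p = 0.882), so an increase of the size seen in *Isg15* lay outside the interval.

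*Isg20*, an RNA exonuclease (chr7:78913424-78920396, plus strand), was at 17.3, 11.1 and 18.1 CPM in isotype, 10.3, 12.9 and 15.4 with anti-Lag3, 9.41, 8.24 and 21.7 with anti-PD-L1, and 8.85, 11.6 and 15.1 in CB. Its mean was highest in isotype, but the groups overlapped. The log2 fold change of CB over isotype was -0.39 (SE 0.37, 95% interval -1.14 to 0.37, adjusted p = 0.709).

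**Figure D3:**
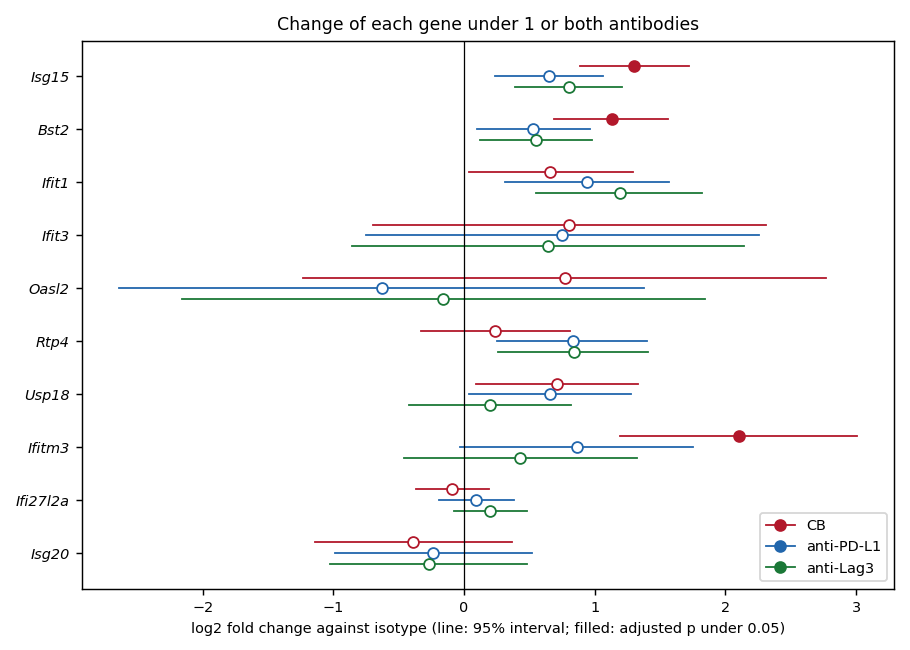
Log2 fold change of each gene against isotype in CB (red), anti-PD-L1 (blue) and anti-Lag3 (green), with 95% intervals. Filled points are called (adjusted p under 0.05). The filled points are *Isg15* (1.30), *Bst2* (1.13) and *Ifitm3* (2.10) in CB, and the *Ifit1* and *Rtp4* points lie farther right for the single antibodies than for CB.

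No gene of the 10 was called in any other comparison in the fit of group means to genes with at least 30 reads. Without that filter, *Isg15* and *Ifitm3* were called in CB against each single antibody and *Isg15* in each single antibody against isotype. The same genes were called with the filter kept and the mouse number of the labels taken as a replicate block. The comparisons with isotype share the same isotype mice, so they are not independent of each other. With anti-PD-L1 alone against isotype, 8 of 10 genes had a higher fitted value (median log2 fold change 0.66), 0.0330% of all genes were called, and *Bst2*, *Ifit1* and *Rtp4* did not overlap, which 5.34% of all genes showed in the same direction. With anti-Lag3 alone, 8 of 10 had a higher fitted value (median 0.49), 0% of all genes were called by edgeR while 788 had an unadjusted p under 0.05, and *Isg15*, *Ifit1* and *Rtp4* did not overlap, against 5.25% of all genes.

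Adding the second antibody was measured by CB against each single antibody. In CB against anti-PD-L1, with 0.370% of all genes called, *Bst2* and *Ifitm3* lay above without overlap (6.94% of all genes) and *Rtp4* below (5.75%). In CB against anti-Lag3, with 0.694% of all genes called, *Ifitm3* lay above without overlap (7.68% of all genes) and *Ifit1* below (7.09%). Between the single antibodies, 0% of genes were called and 710 had an unadjusted p under 0.05. *Ifit1* was lower with anti-PD-L1 than with anti-Lag3 without overlap, which 4.69% of all genes showed, at a log2 difference of -0.25 (SE 0.30). All these non-overlaps are of 3 mice against 3.

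The 10 genes did not move as one. Each gene's log2 CPM was centred on its own mean over the 12 mice, and the median of the 10 centred values was taken in each mouse. This median was -0.57, -0.44 and -0.24 in the isotype mice, -0.29, 0.21 and 0.24 with anti-Lag3, -0.35, 0.09 and 0.36 with anti-PD-L1, and 0.31, 0.19 and 0.61 in CB. Each isotype mouse lay below each CB mouse, while mouse 1 of each single antibody group lay among the isotype mice. The 5 other genes closest to this profile, by the mean absolute difference of centred log2 values over the 12 mice, were *Rfk* (0.0804), *Maf* (0.128), *Trim30a* (0.136), *Gm19585* (0.144) and *Mcm8* (0.144), of 7341 genes whose median difference was 0.362. *Trim30a* is itself interferon-stimulated, *Rfk* encodes riboflavin kinase, *Maf* a transcription factor of helper T cells and *Mcm8* a DNA helicase.

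The other genes of the pathway were described from lists of known function, which were also set with earlier results of these samples known. Of 59 further interferon-stimulated antiviral genes, 56 were tested, and in CB against isotype 5 were called higher and 2 lower (median log2 difference 0.22). Over all 15138 genes tested, 353 were called higher and 296 lower. *Ly6a*, which encodes the surface antigen Sca-1, was at 450 to 488 CPM in isotype and 649 to 685 in CB (log2 fold change 0.50, SE 0.09, adjusted p = 0.00106). *Lgals3bp*, a galectin-binding glycoprotein, rose by 0.74 (SE 0.15, adjusted p = 0.00419), and *Trim30d*, of the same family as *Trim30a*, by 1.00 (SE 0.24, adjusted p = 0.0120). *Ifi35* rose by 0.83 (SE 0.20, adjusted p = 0.0125). The fifth, *Slfn8*, of the Schlafen family, was named after its value was seen and had a log2 fold change of 1.09 (SE 0.32, adjusted p = 0.0487).

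The lower genes were *Ms4a4c*, a membrane protein of the MS4A family, at 16.7 to 23.3 CPM in isotype and 8.27 to 12.2 in CB, and *Sp100*, a nuclear body component, at 148 to 179 and 108 to 131 CPM. Their log2 fold changes were -1.05 (SE 0.28, adjusted p = 0.0250) and -0.42 (SE 0.12, adjusted p = 0.0357). These counts depended on single mice. Only 3 were called higher without isotype mouse 1, CB mouse 1 or CB mouse 3, and of the lower genes 0 were called without isotype mouse 2 or CB mouse 2 and 1 without isotype mouse 3 or CB mouse 1. *Ly6a* was also called in anti-PD-L1 against isotype (0.53, adjusted p = 0.0142), the one gene of these lists called there.

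In CB against isotype, none of the receptor and signalling genes was called higher. *Ifnar1*, a chain of the receptor, was at 34.7, 31.9 and 33.6 CPM in isotype and 17.1, 20.8 and 16.5 in CB, and was called lower (log2 fold change -0.88, SE 0.24, adjusted p = 0.0332). *Ifnar2*, the other chain, was at 45.9, 43.6 and 51.7 CPM and 25.7, 35.7 and 26.4 CPM, and did not pass the test (-0.68, SE 0.21, adjusted p = 0.0564). *Jak1* had a log2 fold change of -0.26 and was not called (SE 0.09, adjusted p = 0.123). *Tyk2* had a log2 fold change of -0.03 (SE 0.24).

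*Stat2* and *Irf9*, of the complex that binds the ISRE, and *Irf7*, a factor that amplifies interferon production, were not called, and their CB and isotype mice overlapped. The log2 fold changes of CB over isotype were 0.32 for *Stat2* (95% interval -0.29 to 0.93), 0.14 for *Irf9* (interval -0.22 to 0.51) and -0.20 for *Irf7* (interval -0.69 to 0.29). Of the 8 genes of the receptor and signalling list, 0 were called higher and 1 lower in CB against isotype. Over all 15138 genes, these counts were 353 and 296. With anti-Lag3 alone, *Stat2* was at 21.2, 20.3 and 29.0 CPM, above the isotype mice at 17.8, 13.6 and 15.5. Of all genes, 5.25% showed such a non-overlap, and in that comparison 4 genes of the list had a higher and 4 a lower fitted value, with 0 called.

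Isg15 is attached to proteins by a chain of enzymes, none of whose 6 genes was called in CB against isotype. *Uba7*, the activating enzyme, was at 23.8, 38.1 and 33.8 CPM in isotype and 16.2, 19.6 and 25.5 in CB (log2 fold change -0.64, SE 0.25, adjusted p = 0.181). *Ube2l6*, the conjugating enzyme, was under 5 CPM in every mouse (1.52, SE 0.99, adjusted p = 0.478). The ligases *Herc6* and *Trim25* gave 0.12 (SE 0.27) and 0.35 (SE 0.13, adjusted p = 0.164), and the related conjugating enzymes *Ube2e1* and *Ube2e2* gave 0.23 (SE 0.15) and -0.67 (SE 1.86).

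Messenger RNA of the type I and type III ligands was not detected in the sorted cells by uniquely mapped reads. None of the 20 type I and type III interferon genes on the list had a read in any library, which by counting error allows up to 3 uniquely mapped reads each per library. Reads shared by several genes were not counted, and for 17 of the 20 part of the 50-base windows in the last 500 bases also occur in another gene, up to 63.6% in *Ifna1*, whereas *Ifnb1* shared none. *Ifng*, the type II interferon, had 642 reads in all and varied from 0 to 6.84 CPM among mice, with a log2 fold change of CB over isotype of 0.25 (SE 1.20, adjusted p = 0.990). Interferon made by other cells of the spleen was not measured here.

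Many antiviral genes also respond to interferon gamma. Of 29 genes of that response, all tested, 4 were called higher and 1 lower in CB against isotype (median log2 difference 0.24). The counts over all 15138 genes were 353 higher and 296 lower. The higher genes were *Igtp* (0.94, SE 0.14, adjusted p = 1.43e-04), *Gbp5* (1.74, SE 0.29, adjusted p = 6.21e-04), *Iigp1* (1.75, SE 0.31, adjusted p = 0.00102) and *Gbp2* (1.44, SE 0.28, adjusted p = 0.00203), all GTPases of intracellular defence. The lower gene was *Tap2*, a chain of the peptide transporter for antigen presentation (-0.59, SE 0.17, adjusted p = 0.0480). *Gbp2* was at 13.9, 15.0 and 14.6 CPM in isotype and 38.1, 40.4 and 39.9 in CB, with the single antibody mice between 13.9 and 34.4.

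The other interferon-stimulated genes were also compared between CB and each single antibody, and they were not on balance lower in CB as *Ifit1* and *Rtp4* were. Of these 56 genes, 30 had a higher and 26 a lower fitted value in CB than with anti-PD-L1 (median log2 difference 0.03), and 29 a higher and 27 a lower one in CB than with anti-Lag3 (median 0.01). The interaction was below 0 in 44 of the 56 other interferon-stimulated genes (median -0.32), in 6 of the 10 antiviral genes (median -0.15) and in 17 of the 29 interferon gamma genes (median -0.08), against 7543 of 15138 over all genes (median 0.00). None was called, and 10 of the 56 had an unadjusted p under 0.05. A negative interaction means that CB lay below the sum of the 2 single effects on the log2 scale.

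**Figure D4:**
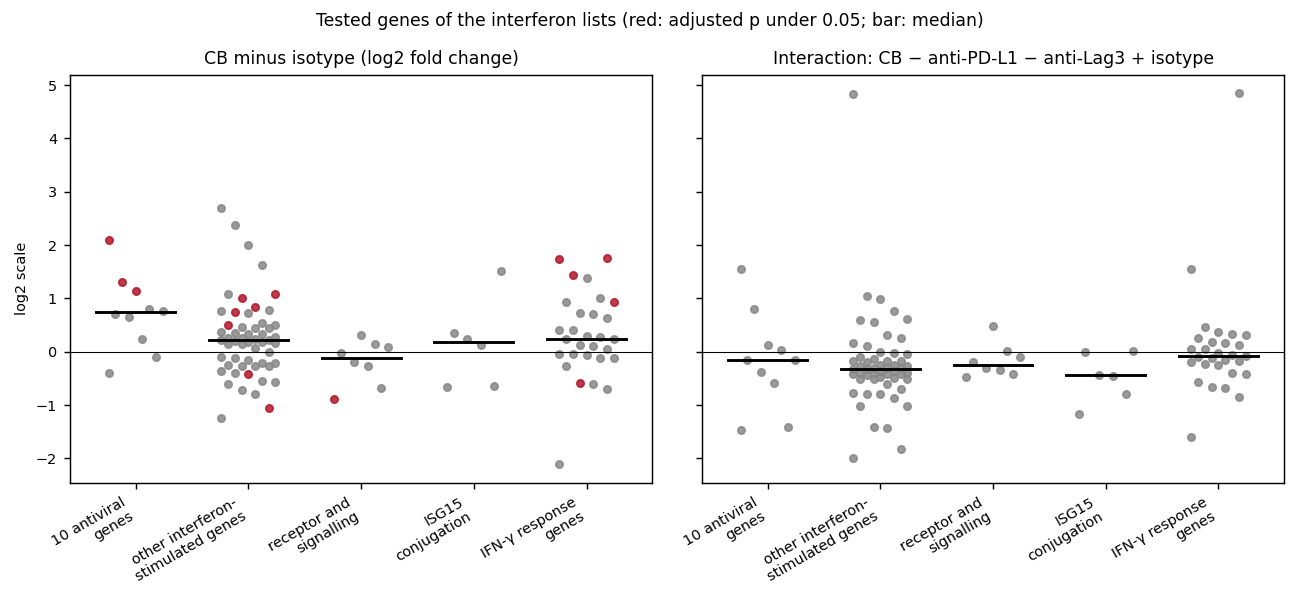
Fitted log2 values of the tested genes of 5 lists, as the fold change of CB over isotype (left) and as the interaction (right), each point a gene, red where the adjusted p was under 0.05 and bars at the medians. *Gm4951*, with no read in isotype, is left out. In the left panel 3 of 10 antiviral genes are red, all above 0, and in the right panel no point is red and 44 of the 56 other interferon-stimulated genes lie below 0 (*Gm4951*, not drawn, is among the 56).

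Markers of other cells were compared between groups beside these changes. The plasmacytoid dendritic cell markers, the cells known for making type I interferon, summed to 18.8 to 38.4 CPM in isotype and 14.6 to 22.6 in CB, and *Siglech*, which defines them, was at 0 to 2.75 CPM in all mice. The myeloid and conventional dendritic cell markers summed to 13.0 to 20.2 CPM in isotype, 9.80 to 14.0 in CB and 26.6 to 36.3 with anti-PD-L1, and the B cell markers to 406 to 466 in isotype and 348 to 434 in CB. These are sums over each list, and single markers went both ways. In CB against isotype, fitted values were higher for 1 and lower for 7 plasmacytoid dendritic cell markers. They were higher for 4 and lower for 8 of the myeloid and conventional dendritic cell markers tested. Of the B cell markers, 3 were higher and 7 lower. The T cell markers summed to 4624 to 4802 CPM in isotype and 4179 to 4269 in CB, and the erythroid markers to 241 to 451 and 150 to 198. The NK cell and CD8 T cell markers summed to 18.6 to 36.6 and 40.9 to 45.3 CPM in isotype, against 9.09 to 16.8 and 25.0 to 33.2 in CB. The part of these shifts in the results was not tested.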

How the data were processed

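The authors prepared 3′ tag libraries from 5 ng of RNA with 18 amplification cycles. They trimmed reads with Cutadapt 1.18, mapped them to GRCm38 with STAR 2.6.1a and deposited raw counts per gene of uniquely mapped reads from featureCounts 1.6.4. The annotation release and strand setting are not given in the sources used here, and no molecular identifiers are stated, so counts include amplification copies. A low gene can therefore jump between mice. The limit given for a count of 0 covers counting error only, whereas the intervals of fold changes come from the fit and include the spread between mice. The authors also deposited rlog values, which were not used.

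Symbols and positions came from the GENCODE annotation of GRCm38, in which 52073 of 56691 gene identifiers were found. Genes with at least 30 reads over the 12 samples were tested, without the 114 spike-ins. edgeR 4.0.16 in R 4.3.3 was used with TMM scaling, 1 fit of the 4 group means, quasi-likelihood tests, Benjamini-Hochberg adjustment over all genes tested and a threshold of 0.05. Levels are CPM after TMM, and fold changes carry a prior count of 0.125. The fit was tested on simulated data. Compared were CB with each other group, each single antibody with isotype, the single antibodies with each other, and the interaction (CB minus both single antibodies plus isotype). The 3 samples of a group are separate mice. No 2 libraries of a group agreed within sampling noise.

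The 10 genes, the lists and the tests were chosen with earlier results of these data known. Named were all 10 genes, *Stat2*, *Irf9*, *Irf7*, *Ifnar1*, *Ifnar2*, up to 6 called genes per list by adjusted p, all *Isg15* conjugation genes, any interferon gene with reads and the 5 genes most like the 10. *Jak1*, *Tyk2*, *Slfn8* and *Gm4951* were named outside this rule, after their values were seen. A gene under this rule is not reported here. Alternatives were DESeq2 1.42.0 against log2 fold changes of 0 and 0.2, RLE size factors, no filter, a mean count of at least 30, leaving out the most abundant gene, the replicate number as a block, and leaving out each mouse in turn.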

Additional observations from a re-analysis of the deposited data

Results flagged for a closer look

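The fitted effect of anti-PD-L1 on *Ifit1* had opposite signs with and without anti-Lag3. Neither effect passed edgeR's quasi-likelihood test over all genes. Over isotype it was 0.94 (interval 0.31 to 1.57, adjusted p = 0.402). In CB against anti-Lag3 it was -0.52 (interval -1.14 to 0.10, adjusted p = 0.566). Without anti-Lag3, every anti-PD-L1 mouse was above every isotype mouse, and with it every CB mouse was below every anti-Lag3 mouse. Of all genes, 5.34% showed the former and 7.09% the latter, and the share with both is not given here. The interaction was -1.46 on the log2 scale and did not pass edgeR's quasi-likelihood test over all genes (adjusted p = 0.804). It lay between -1.65 and -1.20 when 1 mouse was left out.

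The fitted effect of anti-Lag3 on *Rtp4* had opposite signs with and without anti-PD-L1. Neither effect passed edgeR's quasi-likelihood test over all genes. Over isotype it was 0.84 (interval 0.26 to 1.41, adjusted p = 0.805). In CB against anti-PD-L1 it was -0.59 (interval -1.16 to -0.02, adjusted p = 0.532). Every anti-Lag3 mouse was above every isotype mouse, and every CB mouse was below every anti-PD-L1 mouse. Of all genes, 5.25% showed the former and 5.75% the latter, and the share with both is not given here. The interaction was -1.42 and did not pass edgeR's quasi-likelihood test over all genes (adjusted p = 0.752), and it lay between -1.68 and -1.21 with 1 mouse left out.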

How the results depend on the processing

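*Isg15*, *Bst2* and *Ifitm3* were called higher in CB against isotype, and the other 7 genes were not, under every alternative run and without any 1 mouse (log2 fold change without 1 mouse 1.02 to 1.47, 0.92 to 1.29 and 1.67 to 2.68). Over all genes, DESeq2 against 0.2 called 233 in place of 649, and the fits without 1 mouse called 395 to 712, with 395 without CB mouse 3, 417 without isotype mouse 1 and 428 without CB mouse 1. With no filter, 2 of the 10 genes were called in CB against anti-PD-L1 and 2 in CB against anti-Lag3 (*Isg15* and *Ifitm3* in each), and 1 (*Isg15*) in each single antibody against isotype. The methods describe sorting in batches with 1 mouse of each group, and the paper ascribes PC2 of its principal component analysis largely to the sort batches. Nothing says that the numbers 1 to 3 in the labels are these batches. Deviations of same-numbered mice from their group means correlated at 0.11 to 0.25 for number 1, -0.04 to 0.10 for number 2 and 0.03 to 0.16 for number 3 (18 pairs), and 8 of 12 mice, those numbered 1 and 3, correlated best with their own number, a hint from the data and not the design, so the numbers were not taken as pairs. Among the 10 genes, the log2 deviation from the group mean was -0.53 to -0.13 for *Isg15*, -1.30 to -0.27 for *Ifitm3* and -0.32 to -0.18 for *Ifi27l2a* in the mice numbered 1, and 0.18 to 0.49, -0.12 to 0.98 and 0.15 to 0.25 in those numbered 3. With the number as a replicate block the counts were again 2, 2, 1 and 1, for the same genes, with 843 genes called in CB against isotype, and the signs of 3 log2 values turned: *Oasl2* in anti-Lag3 against isotype (0.21), *Bst2* (0.01) and *Isg20* (-0.07) in anti-PD-L1 against anti-Lag3. Without 1 mouse, 0 to 1 of the 10 were called in CB against anti-Lag3 (*Ifitm3*, without isotype mouse 1, isotype mouse 3 or anti-PD-L1 mouse 1), and 4 to 6 did not overlap between CB and isotype. DESeq2 against 0.2 called 1 higher and 0 lower of the other interferon-stimulated genes.

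The sign turned in some fits without 1 mouse, with no call in either direction, for the following log2 values, given as their lowest and highest: CB against isotype (*Rtp4* -0.01 to 0.45 and *Ifi27l2a* -0.22 to 0.02), CB against anti-PD-L1 (*Ifit3* -0.16 to 0.31, *Usp18* -0.22 to 0.51 and *Isg20* -0.39 to 0.42), CB against anti-Lag3 (*Ifit3* -0.22 to 0.64 and *Isg20* -0.33 to 0.05), anti-PD-L1 against isotype (*Isg20* -0.81 to 0.01), anti-Lag3 against isotype (*Oasl2* -0.72 to 0.29, *Usp18* -0.03 to 0.42 and *Ifitm3* 0.00 to 1.01), anti-PD-L1 against anti-Lag3 (*Isg15* -0.35 to 0.07, *Bst2* -0.15 to 0.12, *Ifit3* -0.27 to 0.59, *Rtp4* -0.16 to 0.17, *Usp18* 0.00 to 0.72, *Ifi27l2a* -0.24 to 0.04 and *Isg20* -0.54 to 0.28) and the interaction (*Isg15* -0.43 to 0.04, *Bst2* -0.15 to 0.25, *Usp18* -0.42 to 0.31 and *Isg20* -0.12 to 0.70). The cause was not tested. Genes with few reads (*Oasl2*, *Ifit3*) set the limit of what 3 mice a group can show, and the intervals in the report leave room for changes of either sign in *Ifit3*, *Oasl2*, *Rtp4* and *Isg20*.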
